A study of Mus musculus with 23 samples.

Results

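In 4 windows of the mouse genome, 3 on chromosome 10 and 1 on chromosome 2, stretches of DNA carried far more sequencing counts than the chromosomes around them in open-chromatin libraries of 3T3-L1 preadipocytes. The members are the peaks that lie fully within chromosome 10 at 107.0 to 107.5 Mb, 117.0 to 118.0 Mb or 118.5 to 119.0 Mb, or within chromosome 2 at 77.5 to 78.5 Mb. These windows are called 10a, 10b, 10c and 2a below. They were selected on their high counts in these libraries, so the height itself is a description and was not tested. The members were 440 of the 84019 peaks deposited for day -2, 257 of the 31970 for day -1 and 293 of the 37054 for day 0, in all 990 of 153043.

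The study used ATAC-seq, in which a transposase inserts adapters into accessible DNA, on 3T3-L1, an established line of mouse fibroblasts that can be turned into fat cells. Cells received 50 nM of scramble siRNA, a control without a target, or 50 nM of siRNA against Kdm5c, an X-linked demethylase of histone H3 lysine 4. Nuclei were collected 24 hours (day -2), 48 hours (day -1) or 72 hours (day 0) after the siRNA. There were 4 libraries for each arm and day, except 3 for Kdm5c siRNA on day 0, which made 23. The labels do not say whether replicates were separate cultures, so each p-value reflects the spread among these libraries alone, which may be technical. The transposase reads DNA and not the siRNA's target RNA, and the knockdown itself was not analysed here.

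Counts in an ATAC-seq peak rise with how accessible the DNA is and with how many copies of it a nucleus holds, and these cannot be told apart here. Mdm2, the best known gene of the 4 windows, encodes the ubiquitin ligase that marks the tumour suppressor p53 for destruction, and p53 in turn activates Mdm2. The gene takes its name from mouse double minutes, small extra chromosomes of a derivative of another 3T3 line, on which it was first found in many copies. Cwc22, the gene of the chromosome 2 window, encodes a spliceosome protein needed to deposit the exon junction complex on spliced RNA.

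Nuclear counts ranged from 781309 to 3345583 per library, and mitochondrial peaks took 56.4% to 93.2% of all counts. Members took 4.23% to 6.07% of the nuclear counts, although they were under 1% of the peaks on each day. Of 11 fibroblast and preadipocyte marker genes, 8, 6 and 6 had a promoter-class peak, meaning one that the authors gave a gene, on days -2, -1 and 0. Among 4 leukocyte markers there were 1, 0 and 0 such genes, among 3 epithelial markers 1, 0 and 0, among 3 endothelial markers 2, 1 and 1, among 3 muscle markers 3, 0 and 0, and among 4 mature adipocyte markers 1, 0 and 1. An open promoter is not a measure of expression. The day -2 table lists the most peaks of the 3.

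The promoters below are those of the coding genes whose start fell inside a high-count stretch and carried a member peak, 6 of 6 matched in the RefSeq table for GRCm38.p6. Each is the 250 bases before the start annotated there, written 5′ to 3′ on the gene's own strand. For Nup107 that start lies inside the gene's span, which ends at 117792736, so part of its sequence overlaps the gene. Capitals mark the GC box GGGCGG, the CCAAT box CCAAT, the ETS motif CCGGAAG and the E-box CACGTG on either strand. The CRE TGACGTCA was also searched. They are shown because their peaks differ widely in height, from Mdm2, the highest of the 6 on each day, to Nup107, the lowest of the 6.
Mdm2 (chr10:117710759-117711008, minus strand): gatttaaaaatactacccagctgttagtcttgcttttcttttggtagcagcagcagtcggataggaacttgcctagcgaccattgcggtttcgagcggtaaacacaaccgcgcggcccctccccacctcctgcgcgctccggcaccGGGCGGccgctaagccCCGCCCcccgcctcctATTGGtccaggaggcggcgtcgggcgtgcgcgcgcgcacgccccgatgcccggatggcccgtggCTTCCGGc
Slc35e3 (chr10:117746359-117746608, minus strand): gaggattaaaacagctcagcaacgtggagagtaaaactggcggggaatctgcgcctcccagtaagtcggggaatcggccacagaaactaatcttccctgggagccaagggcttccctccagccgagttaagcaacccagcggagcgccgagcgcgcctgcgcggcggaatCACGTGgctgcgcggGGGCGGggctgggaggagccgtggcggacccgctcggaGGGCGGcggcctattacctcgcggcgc
Cpm (chr10:117629250-117629499, plus strand): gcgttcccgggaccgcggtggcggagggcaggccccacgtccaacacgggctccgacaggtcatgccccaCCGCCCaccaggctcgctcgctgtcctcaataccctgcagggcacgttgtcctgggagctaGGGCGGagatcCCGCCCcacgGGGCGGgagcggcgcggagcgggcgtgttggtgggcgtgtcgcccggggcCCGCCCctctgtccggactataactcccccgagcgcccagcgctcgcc
Nup107 (chr10:117792706-117792955, minus strand): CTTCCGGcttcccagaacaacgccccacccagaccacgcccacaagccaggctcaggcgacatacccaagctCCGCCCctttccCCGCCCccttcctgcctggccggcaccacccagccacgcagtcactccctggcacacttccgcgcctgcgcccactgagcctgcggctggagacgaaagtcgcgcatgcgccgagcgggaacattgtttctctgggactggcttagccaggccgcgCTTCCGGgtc
Lyz2 (chr10:117282273-117282522, minus strand): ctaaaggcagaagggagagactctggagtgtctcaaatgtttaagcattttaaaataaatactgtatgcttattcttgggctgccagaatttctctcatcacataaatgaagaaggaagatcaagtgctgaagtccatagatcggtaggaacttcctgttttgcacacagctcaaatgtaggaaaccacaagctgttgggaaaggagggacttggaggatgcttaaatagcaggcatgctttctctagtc
Cwc22 (chr2:77946357-77946606, minus strand): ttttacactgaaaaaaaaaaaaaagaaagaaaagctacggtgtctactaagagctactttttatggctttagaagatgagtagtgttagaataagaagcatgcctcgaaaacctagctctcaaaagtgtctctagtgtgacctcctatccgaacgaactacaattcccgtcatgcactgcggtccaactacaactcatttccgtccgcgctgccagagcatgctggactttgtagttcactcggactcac

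The GC box matched 2 times before Mdm2, 2 before Slc35e3, 5 before Cpm and 2 before Nup107, and did not match before Lyz2 or Cwc22. It occurs in 32.7% of the 32851 promoters of that table. The Mdm2 sequence also held 1 CCAAT box, found in 33.8% of promoters, and 1 ETS motif, found in 6.91%. Nup107 held 2 ETS motifs, and Slc35e3 held 1 E-box, found in 6.02%. The CRE, present in 1.55% of promoters, matched none of the 6. The GC content was 65.6% for Mdm2, 66.4% for Slc35e3, 74.4% for Cpm, 68.0% for Nup107, 41.6% for Lyz2 and 42.8% for Cwc22, against a median of 52.4% over the table. The sequences of Mdm2 and Nup107, with the highest and the lowest of these 6 peaks, were thus both rich in G and C. These matches describe letters and not bound sites.

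The high counts formed blocks shorter than the windows. A block, or stretch, is a run of at least 5 peaks whose counts per kb of peak are at least 2 times the median of the chromosome, with gaps of at most 50 kb and at most 1 lower peak in a row. In window 10a the stretch ran over chr10:107213089-107256866 on day -2, a length of 43.8 kb, and held 26, 23 and 26 peaks on the 3 days. No coding gene lies in it. It sits between the noncoding gene Gm29674 and Lin7a, which encodes a scaffold protein of cell junctions.

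Window 10b held the longest stretch, at chr10:117377436-117792963 on day -2, 415.5 kb with 261 peaks. It covers the spans of Cpm, a membrane carboxypeptidase, Mdm2, Slc35e3, a solute carrier gene, and Nup107, a nuclear pore subunit. Its last peak is the promoter peak of Nup107. It will be called the Mdm2 stretch. A second, short run of 5 peaks on day -2 lay to its left at chr10:117281249-117291236, 9.99 kb, over the start of Lyz2 and most of Lyz1, the paired lysozyme genes. Lyz1 and Lyz2 are close copies, so reads from one could have been placed in the other. The 86.1 to 86.3 kb between the runs, which contain the span of the cleavage factor gene Cpsf6, were not analysed here. Elsewhere in these runs the longest distance between neighbouring peaks was 7.32 kb on day -2, 14.3 kb on day -1 and 10.525 kb on day 0.

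In window 10c the stretch was 12.2 kb long at chr10:118610973-118623212 on day -2, with 12, 12 and 6 peaks, and it holds no coding gene. The noncoding genes Ifngas1 and Gm33337 flank it. In window 2a the stretch covered chr2:77869704-78027209, 157.5 kb with 79, 53 and 59 peaks, and included all of Cwc22 and the pseudogene Gm13726. It will be called the Cwc22 stretch. These ends were set by a rule added after the data were seen. The rule planned at first, bins of 100 kb at 3 times the chromosome's median, gave 237.2 kb for 10a, 685.6 kb for 10b, 18.4 kb for 10c and 236.9 kb for 2a, as means over the days. Between days, each of which has its own set of peaks, starts of the 5 runs differed by 15 to 127 bp and ends by 28 to 106 bp. These are limits of the outermost peaks, and where the counts fell between them and the next peak was not resolved. Left of 10a, for example, the next peak on day -2 was at chr10:106775410-106775943.

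**Figure D1:**
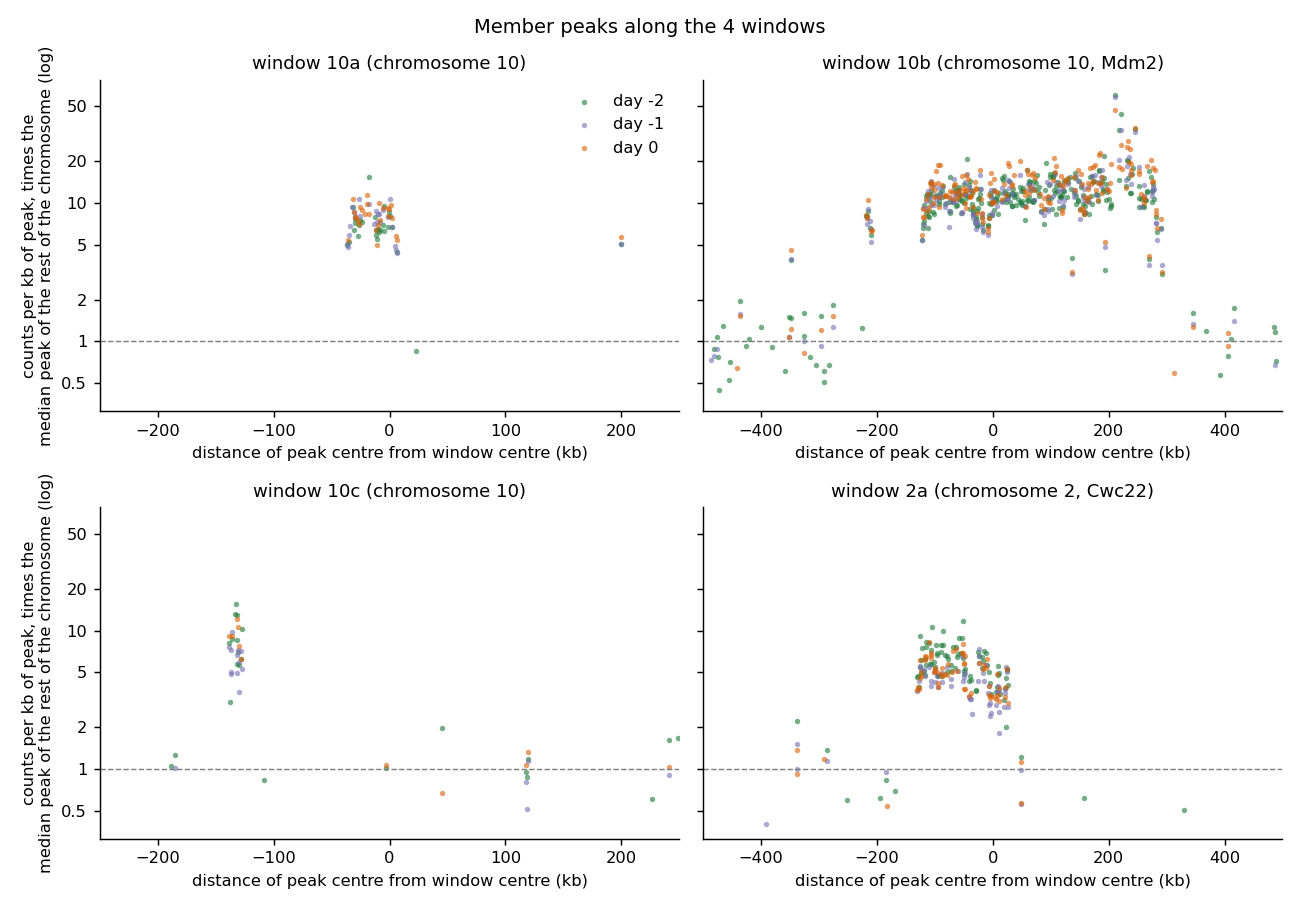
Each point is a member peak, placed by the distance of its centre from the window centre in kb; the vertical axis, on a log scale, gives its counts per kb of peak relative to the median peak of the rest of the chromosome, with 1 as a dashed line. Colours give the day. Blocks with medians of 4.26 to 12.4 times stand beside peaks near 1, and the Mdm2 promoter is the highest point at 46.9 to 60.5 times.

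By number of peaks, the runs of 10a, the Mdm2 stretch and the Cwc22 stretch were longer on each day than any run elsewhere in the genome. The 10c run, with 12, 12 and 6 peaks, was longer than any run elsewhere on day -1 alone. The left run of 10b, with 5, 6 and 5 peaks, was so on no day. At 2 times the median, 42, 4 and 7 further runs of 5 or more peaks were found on days -2, -1 and 0, and 1, 0 and 1 of them had 10 or more peaks. The longest had 14, 9 and 14 peaks. At 3 times the median, all 5 runs of the windows remained runs on each day, and 2 others were found on each day. Under that stricter rule the Cwc22 stretch ended at 77992803 on 1 of the days, which shortened it to 123.1 kb.

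The step at each end is described by the 2 peaks just inside and the 2 just outside. Ends were set where peaks fell below 2 times the median or a gap passed 50 kb. Inner peaks above outer ones therefore follow largely from the rule, and only the size of the step is given. On day 0 the inner pair at the left end of the 10b runs, both given to Lyz2, had 519.7 and 495.3 counts per kb per library. The outer pair, of which the nearer is the Yeats4 promoter, had 97.3 and 77.3. At the right end the inner peaks had 483.8 and 201.1, the latter being the Nup107 promoter, and the outer ones 37.65 and 80.7, the latter being the promoter of the small GTPase gene Rap1b. Over the 3 days the inner mean exceeded the outer mean by 5.22 to 6.71 times on the left and 3.46 to 5.79 times on the right of the 10b runs. The same ratio was 4.80 to 6.30 and 7.98 to 9.40 for 10c, and 3.82 to 6.17 and 4.86 to 5.13 for the Cwc22 stretch. For 10a it was 3.15 to 4.92 on the left but 1.34 to 1.88 on the right. One outer peak on that side, at chr10:107449503-107450257 on day -2, stood alone at 5.07, 5.02 and 5.68 times the rest of the chromosome on the 3 days.

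Within the stretches the peaks were both high and dense. The rule for runs asks for high peaks close together, so these values are a description. In the 10b runs the median peak had 11.1, 11.2 and 12.4 times the counts per kb of the median peak on the rest of chromosome 10 on days -2, -1 and 0. The medians were 6.75, 7.97 and 8.20 times in 10a and 8.34, 6.30 and 9.12 times in 10c. In the Cwc22 stretch they were 5.64, 4.26 and 5.04 times the rest of chromosome 2. Peaks of the 10b runs numbered 625.1, 338.6 and 418.4 per Mb, against 21.6, 10.3 and 11.4 per Mb over chromosome 10. Peaks covered 28.4%, 15.2% and 18.1% of the length of the 10b runs. Between 93.5% and 99.3% of a window's counts lay in its stretch.

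Peak length did not set the members apart in 1 direction. The median member of window 10b was 289 bp long on day -2, against 242 bp on the rest of the chromosome, but 286 against 385 bp on day -1 and 261.5 against 351.5 bp on day 0. Per kb of genome rather than of peak, the windows had 29.6 ± 6.11 (10a), 173.8 ± 20.98 (10b), 18.2 ± 3.75 (10c) and 9.12 ± 1.93 (2a) times the density of the rest of their chromosome (mean ± SD, n = 23 libraries). These values include the quiet parts of each window.

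Outside the stretches, where the rule leaves mostly lower peaks, the members of 10b, 10c and 2a were near the chromosome's level. Their median was 1.04, 1.05 and 1.18 times in window 10b, 1.06, 0.90 and 1.07 times in 10c and 0.69, 0.98 and 1.02 times in 2a. Window 10a differed, with a median of 2.96, 5.02 and 5.68 times, over 2, 1 and 1 such members that include the lone peak above. In 10b they include the promoter peaks of Cct2, a subunit of a cytosolic chaperonin, at 1.94, 1.56 and 1.53 times, Frs2, an adaptor of growth factor receptors, at 1.51, 1.08 and 1.07 times, and Yeats4, a chromatin reader, at 1.82, 1.27 and 1.53 times. Rap1b stood at 1.60, 1.34 and 1.27 times. In 10c the promoter of the kinase gene Dyrk2 stood at 1.19, 1.15 and 1.33 times. The exception in 10b was a short peak within 10 kb of Frs2, at chr10:117151806-117151939 on days -2 and 0, with 3.85, 3.96 and 4.60 times on days -2, -1 and 0.

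Of 32 annotated genes that overlap window 10b, 25, 20 and 20 had a member peak on days -2, -1 and 0, among them 12, 11 and 10 of the 14 coding genes. In 10a 4 coding genes overlap the window, and 1 of them, Lin7a, had a peak, on day -2 only, at 0.85 times. In 10c the 1 coding gene, Dyrk2, had peaks on each day. In 2a, 2 of 3 coding genes did, Cwc22 and the zinc finger gene Zfp385b. The noncoding genes and pseudogenes with a peak in a stretch were Gm40770, Gm9002, Gm32141, Gm51783, Gm32235, Gm9004, Kifc5c-ps, Gm32319 and Gm32365 in 10b and Gm13726 in 2a. Outside the stretches, the others with a peak were Gm10747, Gm31963, Gm40773 and Gm32605 in 10b, LOC115485728, Gm33439 and Gm33624 in 10c, and Gm17927, Gm52519 and 4930440I19Rik in 2a. The remaining coding genes with a peak outside the 10b runs were Best3, an anion channel gene, and Lrrc10, a heart muscle gene.

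The windows and their surroundings also hold genes that fibroblasts are known not to use. Runs were set by high counts, so higher peaks at genes inside a run than at genes outside follow from the rule. A relation between counts and the use of these genes was not tested. Lyz1 and Lyz2, used by myeloid and Paneth cells, lie in the left run of 10b, where their highest peaks stood at 6.40 to 7.38 and 7.72 to 8.16 times. Myf5 and Myf6, regulators of skeletal muscle inside window 10a but outside its stretch, had no peak within 1 kb on any day. The lymphocyte genes Il22 and Iltifb, between windows 10b and 10c, had none either, and Ifng had 1, at 0.40 times on day -1. Lrrc10 had 1 peak, on day -2, at 0.71 times. Best3 had 6, 4 and 1 peaks on days -2, -1 and 0, of at most 1.66, 0.96 and 0.67 times. Otogl, an inner ear gene beyond the right end of window 10a and in no stretch, had 7, 3 and 4 peaks, the highest at 2.08, 2.07 and 2.25 times.

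Height also varied along the Mdm2 stretch. The Mdm2 promoter peak, at chr10:117709732-117711287 on day -2, stood at 60.5, 58.3 and 46.9 times the median peak of the rest of the chromosome on days -2, -1 and 0. A peak about 10 kb upstream of it without a gene name, at chr10:117721288-117722090 on day -2, had 44.0, 34.0 and 26.4 times. On day 0 that peak was lower than the Slc35e3 promoter. The Slc35e3 promoter stood at 34.2, 32.7 and 34.7 times, and the Cpm promoter at 14.3, 13.7 and 15.0 times. The high ground thus lay between the Mdm2 and Slc35e3 promoters. Within the body of Slc35e3 the median peak was at 16.3, 16.1 and 19.2 times, whereas within Cpm it was at 11.4, 12.1 and 13.7 times and within Nup107 at 10.7, 11.2 and 11.7 times.

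A few peaks inside the Mdm2 stretch were low at the same place on every day. One within Cpm, at chr10:117636370-117637382 on day -2, had 3.98, 3.07 and 3.17 times on days -2, -1 and 0. Another within Nup107, at chr10:117768461-117769905 on day -2, had 3.97, 3.57 and 4.12 times. The Nup107 promoter, the last peak of the stretch, had 3.09, 3.55 and 3.16 times. They were still above the peaks just outside, which the rule for the ends favours.

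High counts were not limited to promoter-class peaks. The 10 promoter-class peaks of the runs had a median 6.47, 9.38 and 7.55 times that of promoter-class peaks on the rest of chromosome 10, while the 256, 134 and 168 other peaks had a median 11.8, 12.1 and 13.6 times that of other peaks there. The 3 highest peaks of window 10b on day 0 were the Mdm2 promoter with 2987 counts per kb per library, the Slc35e3 promoter with 2209 and a peak within 10 kb of Slc35e3, at chr10:117732600-117732749, with 1774. In 10a the 3 highest had 729.9, 678.9 and 639.8, in 10c 771.5, 681.3 and 581.8, and in 2a 526.9, 508.0 and 468.6. Those of 10a and 10c lie over 10 kb from any coding gene, and those of 2a lie within Cwc22 or within 10 kb of it. In the Cwc22 stretch the Cwc22 promoter stood at 8.87, 6.60 and 6.91 times the rest of chromosome 2, and peaks within Cwc22 had medians of 6.57, 4.69 and 5.35 times. Peaks over 10 kb from the gene had medians of 4.67, 3.58 and 3.64 times.

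How the stretches differed between arms was tested in 2 ways, by peak and by stretch. By peak, no member was called on any day at an adjusted p under 0.05 in edgeR's quasi-likelihood test, which covered all peaks of the day. Calls were also rare over all peaks: 0.00404% on day -2, 0% on day -1 and 0.00352% on day 0. The numbers of members that passed the filter on low counts were 418 of 440, 247 of 257 and 288 of 293. At an unadjusted p under 0.05, 50 of the 418 differed on day -2, which is 12% against 4.63% of all tested peaks. Of these 48 were higher with Kdm5c siRNA (2.32% of all tested peaks were) and 2 lower (2.31%). On day -1 there were 18 of 247, 7.29% against 5.38%, all of them lower (2.82% of all tested peaks) and 0 higher (2.55%). On day 0 there were 64 of 288, 22.2% against 5.99%, of which 62 were lower (3.32% of all tested peaks) and 2 higher (2.67%). With DESeq2 no member was called either, and 24, 15 and 53 had an unadjusted p under 0.05, which is 5.45%, 5.84% and 18.1% of members against 3.58%, 5.02% and 5.62% of all peaks.

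These counts moved with single libraries. On day -2 the count of 50 became 24, 23 and 33 without siRNA replicate 1, 2 or 4, and 105 without siRNA replicate 3. It became 13 and 24 without scramble replicate 2 or 3. In that order the shares of members were 5.73%, 5.53%, 7.84%, 25.1%, 3.08% and 5.73%. The shares of all tested peaks were 4.08%, 4.39%, 4.11%, 7.45%, 3.90% and 3.73%. Without scramble replicate 2 the share of members was thus below that of all peaks. On day -1 the count of 18 became 30 without siRNA replicate 2 and 10, 9 and 37 without scramble replicate 1, 3 or 4. On day 0 the count of 64 became 129, 24 and 20 without siRNA replicate 1, 2 or 4, and 35 without scramble replicate 3. The smallest day 0 count, 20 of 288, is 6.94% of members against 5.10% of all peaks in that fit.

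The members leaned together, and their lean differed in sign between day -2 and the later days. The median log2 fold change of members, Kdm5c siRNA against scramble, was 0.14 on day -2, -0.09 on day -1 and -0.16 on day 0, against 0.00, -0.00 and -0.01 over all tested peaks. Over all members together, the sign held without 1 library but the size did not. The day -2 median was 0.09, 0.08, 0.08 and 0.09 without siRNA replicate 1 or 2 or scramble replicate 2 or 3. The day -1 median was -0.15 and -0.01 without siRNA replicate 2 or 4, and -0.04, -0.04 and -0.16 without scramble replicate 1, 3 or 4. The day 0 median was -0.29 and -0.08 without siRNA replicate 1 or 4. Scaling by total counts alone moved the medians of members to 0.61, 0.28 and 0.38 and those of all peaks to 0.44, 0.38 and 0.56, so that members stayed above all peaks on day -2 and below them on the other days, but the sign flipped on days -1 and 0. Of members, 17.5% were below 0 on day -2, 71.7% on day -1 and 84.4% on day 0, against 50.0%, 50.4% and 51.1% of all tested peaks. Peaks of 1 stretch rise and fall as a block between libraries, as given below, so members are not independent of each other. In the 10b runs the stretch medians were 0.17, -0.09 and -0.18, and in 10a 0.07, -0.05 and -0.10. They were 0.16, -0.16 and -0.13 in 10c and 0.06, -0.04 and -0.19 in the Cwc22 stretch. Medians of single windows could change sign without 1 library. The day -2 median of 2a became -0.014 without siRNA replicate 1 and -0.002 without scramble replicate 3. On day -1 that of 10a became 0.024 without siRNA replicate 4, and that of 2a became 0.024 without scramble replicate 1.

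**Figure D2:**
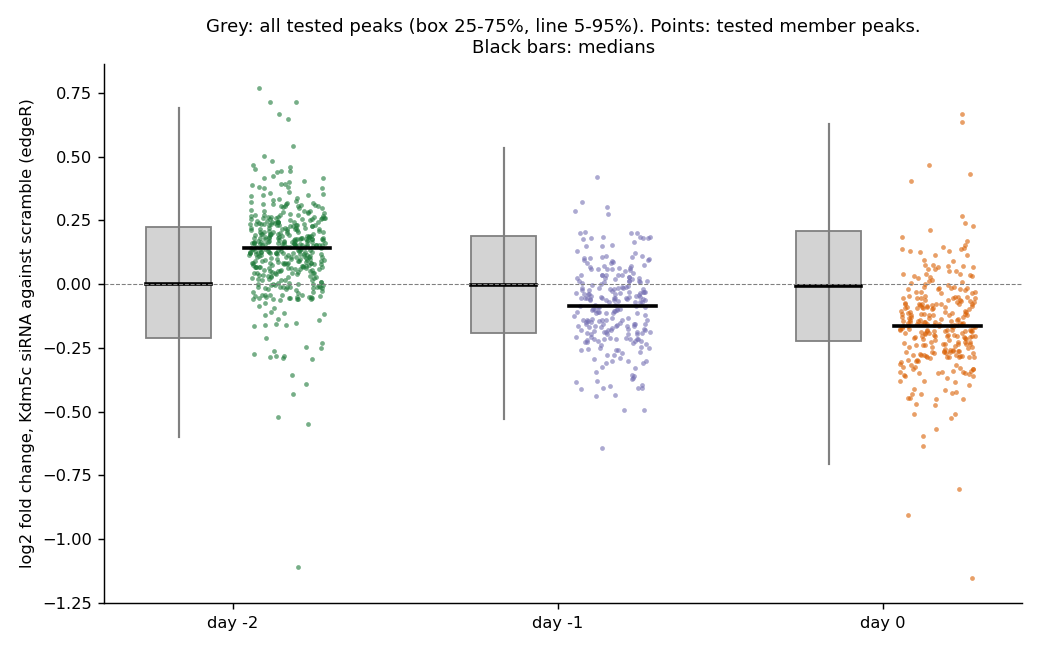
Log2 fold change of Kdm5c siRNA against scramble from edgeR, by day. Grey boxes and lines give 25 to 75% and 5 to 95% of all tested peaks, points are the tested members (418, 247 and 288), and black bars are medians; members sit above the median of all peaks on day -2 (0.14) and below it on days -1 and 0 (-0.09 and -0.16).

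The promoter of Mdm2 gave little difference. Its normalised counts on day 0 were 7332, 7393 and 7148 in the Kdm5c siRNA libraries and 6889, 6494, 6831 and 6211 in the scramble libraries. Every siRNA library was above every scramble library, but by little: the log2 fold change was 0.14 (SE 0.12, edgeR's adjusted p = 0.933). Arms did not overlap in this direction for 4 of the 288 members, 1.39%, against 3.11% of all tested peaks. On day -2 the siRNA libraries had 5937, 5526, 6895 and 6460 normalised counts and the scramble libraries 5769, 6193, 6670 and 5924, which overlap (log2 fold change 0.02, SE 0.11). On day -1 the values were 5058, 4855, 5278 and 4939 against 4811, 4749, 4884 and 4894, a log2 fold change of 0.06 (SE 0.12).

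The Slc35e3 promoter had log2 fold changes of -0.05, 0.01 and 0.08 on days -2, -1 and 0, and the Cwc22 promoter 0.08, 0.06 and 0.07, each with an SE of 0.11 to 0.12 and overlapping arms. The Cpm promoter on day -2 had 1233, 1450, 815 and 1049 normalised counts with siRNA and 997, 922, 905 and 1022 with scramble. Its arms overlapped, with a log2 fold change of 0.24 (SE 0.12, edgeR's adjusted p = 0.980). The 11 promoter-class members of the stretches had medians of 0.08, -0.01 and -0.08 on the 3 days, against 0.15, -0.09 and -0.17 for the other stretch members.

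To set a promoter against its own stretch, the counts per kb of the promoter peak were divided by those of all other peaks of the stretch in the same library, a comparison chosen after the values were seen. On day -2 the Mdm2 ratio averaged 5.47 ± 1.21 (SD, n = 4) in the siRNA libraries and 5.90 ± 0.80 (n = 4) in the scramble libraries. The day -1 averages were 5.79 ± 0.66 and 5.26 ± 0.60 (n = 4 each), and those of day 0 were 4.47 ± 0.53 (n = 3) and 3.67 ± 0.21 (n = 4). On day 0 the log2 difference was 0.28 (SE 0.11), with a two-sided exact permutation p of 0.0571 and 0.686 after adjustment over 4 promoters and 3 days. The smallest p that 3 against 4 libraries allow is 0.0286, so a single promoter and day could not pass after that adjustment. Over the 3 days the log2 difference was 0.10 for Mdm2, 0.03 for Slc35e3, 0.00 for Cpm and 0.12 for Cwc22, and none passed (exact permutation of arms within days, adjusted p = 0.525 to 0.947).

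The member with the smallest p on day 0 lay within the span of Cwc22, at chr2:77903372-77903600. It had 65.7, 32.6 and 51.1 normalised counts in the 3 Kdm5c siRNA libraries and 57.3, 107.9, 104.4 and 97.9 in the 4 scramble libraries. The arms overlapped through 1 scramble library, replicate 1, and the log2 fold change was -0.90 (SE 0.20, edgeR's adjusted p = 0.0504). It was called with RLE size factors, without the filter on low counts and, in an alternative added after the data were seen, with mitochondrial peaks left out and members kept out of the normalisation, with adjusted p of 0.0438, 0.0445 and 0.0351. It was also called without scramble replicate 1, at -1.09 with an adjusted p of 0.00146, and without siRNA replicate 1, at -1.09 with 0.00483. Over 14 alternatives the adjusted p ran from 0.00146 to 0.962.

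A neighbour within Cwc22, at chr2:77899876-77900015, had 37.5, 29.8 and 34.6 against 76.4, 62.7, 52.8 and 42.9 normalised counts on day 0. The 2 arms did not overlap there, with a log2 fold change of -0.80 (SE 0.24, edgeR's adjusted p = 0.617). Non-overlapping arms in this direction were seen for 18 members on day 0, 6.25% against 3.11% of all tested peaks. The other 3 of the 5 smallest p on that day lay within Nup107, Cpm and Slc35e3. The Nup107 peak, at chr10:117776065-117776176, had 124.6, 82.8 and 89.0 against 166.3, 153.0, 133.9 and 147.5, which do not overlap (log2 fold change -0.64, SE 0.16, edgeR's adjusted p = 0.152). Leaving out siRNA replicate 1 made it a call, at -0.80 with an adjusted p of 0.0216. The Cpm peak at chr10:117672034-117672306 and the Slc35e3 peak at chr10:117738284-117738474 both had a log2 fold change of -0.51, with edgeR's adjusted p of 0.361 and 0.366.

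On day -2 the 5 smallest p had log2 fold changes of 0.36 to 0.49 and, by edgeR, an adjusted p of 0.980 each. They were 4 peaks of the Mdm2 stretch, led by chr10:117609758-117609935 at 0.46 (SE 0.15), and 1 of 10a, at chr10:107238949-107239180. The 10a peak had 99.2, 95.04, 95.7 and 97.0 normalised counts with siRNA and 73.4, 64.3, 61.2 and 76.4 with scramble, which do not overlap. Of all members, 10 had arms apart and higher on that day, 2.39% against 1.51% of all tested peaks, and 2 had arms apart and lower, against 1.35%. On day -1 the 5 lay in the 10b runs, from -0.40 to -0.49, led by chr10:117547044-117547948. That peak had 655.8, 753.9, 685.7 and 568.8 normalised counts with siRNA and 912.7, 802.8, 934.9 and 864.5 with scramble (log2 fold change -0.40, SE 0.12, edgeR's adjusted p = 0.698). Its arms did not overlap, as for 3 members lower on that day, against 1.69% of all tested peaks, and 0 members had arms apart and higher, against 1.58%.

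Genes of the p53 pathway elsewhere in the genome gave a reference for Mdm2. Of 20 such genes, 13, 11 and 11 had a tested promoter-class peak on days -2, -1 and 0, and none was called by edgeR, with 1, 0 and 0 at an unadjusted p under 0.05. Their median log2 fold changes were -0.00, -0.01 and 0.04. Trp53, the gene of p53 itself, was at -0.23 (SE 0.26), 0.45 (SE 0.30) and 0.34 (SE 0.31).

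By stretch, the level of a window was its member counts per 100 nuclear counts outside all 4 windows. Window 10b had 4.35, 4.44, 3.70 and 4.15 in the day -2 libraries with Kdm5c siRNA and 4.04, 3.57, 3.69 and 4.08 in those with scramble. On day -1 it had 4.02, 4.26, 3.99 and 3.52 against 4.34, 3.94, 4.42 and 3.73. On day 0 it had 5.07, 4.34 and 4.25 against 4.77, 4.59, 5.09 and 4.66. The arms overlapped on each day.

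The other windows showed the same picture at lower levels. On day -2 the siRNA libraries of window 2a averaged 0.625 ± 0.063 (SD, n = 4) and the scramble libraries 0.609 ± 0.041 (n = 4). On day -1 they averaged 0.431 ± 0.024 and 0.436 ± 0.050 (n = 4 each). The day 0 averages were 0.524 ± 0.077 (n = 3) and 0.568 ± 0.049 (n = 4). Window 10a ran from 0.252 to 0.487 and window 10c from 0.151 to 0.290 over all libraries. Because each day has its own peaks, these levels compare arms within a day and not days.

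**Figure D3:**
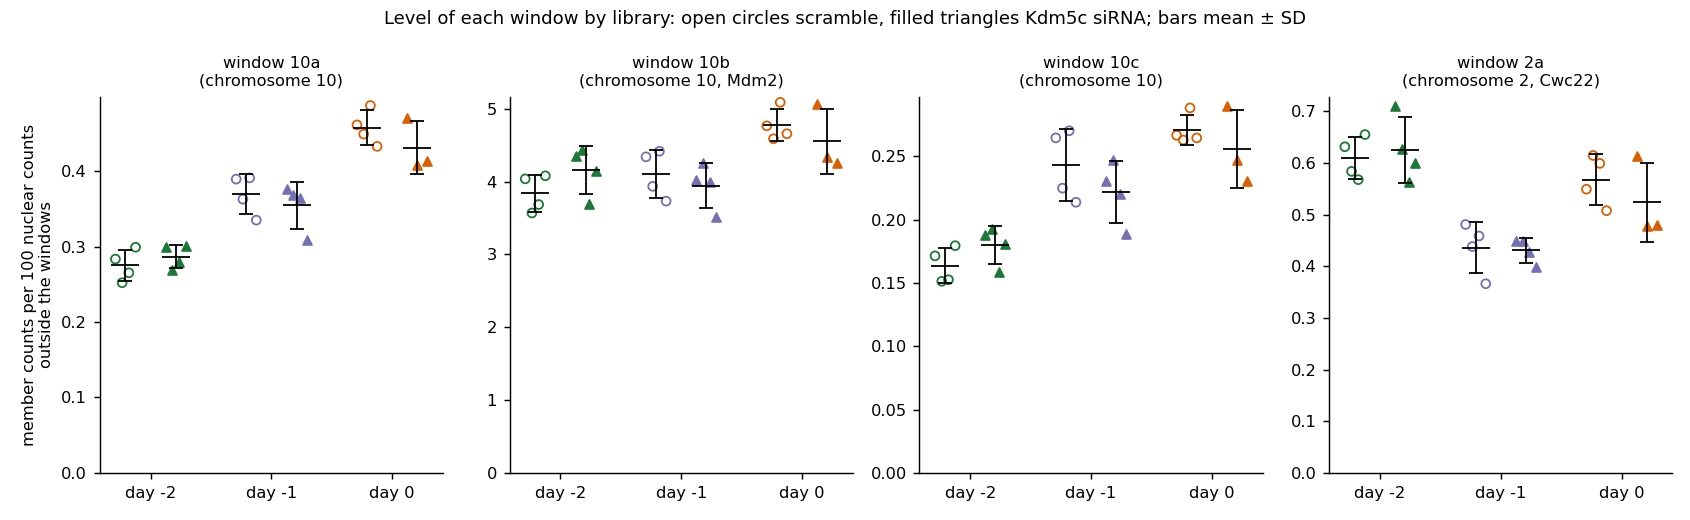
Level of each window in each library, as member counts per 100 nuclear counts outside the 4 windows, by day and arm, with black bars for mean ± SD (n = 4, and 3 for Kdm5c siRNA on day 0). The arms overlap in every window on every day, with 10b between 3.52 and 5.09.

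As log2 levels, Kdm5c siRNA minus scramble in 10b was 0.11, -0.06 and -0.07 for days -2, -1 and 0, with SE of 0.08, 0.08 and 0.09. In the other windows the day differences ran from 0.03 to 0.14 on day -2 and from -0.01 to -0.13 on the later days. Two-sided exact permutation tests gave no difference past the threshold for any of the 12 pairs of window and day. In these exact permutation tests the adjusted p was 0.617 to 0.914. With 4 against 4 libraries p cannot go below 0.0286 unadjusted, so a single pair at that floor would still fail after adjustment. By day, these tests therefore could not detect a difference confined to a single window and day. Over the 3 days the difference was -0.03, -0.01, -0.03 and -0.03 for 10a, 10b, 10c and 2a (exact permutation of arms within days, adjusted p = 0.861 to 0.903). Change of the difference between days was largest for 10c, -0.27 from day -2 to day -1, and none of the 12 such tests passed (adjusted p = 0.331 to 0.896). Expressed per all counts, mitochondrial ones included, the difference over the 3 days was 0.40, 0.43, 0.40 and 0.40, with an adjusted p of 0.00313 for the windows of chromosome 10 and 0.00567 for 2a. The mitochondrial share itself differed between the arms. It was 56.4% to 70.0% with siRNA and 70.4% to 76.3% with scramble on day -2, 87.6% to 92.6% and 90.9% to 93.2% on day -1, and 78.8% to 86.8% and 87.5% to 91.4% on day 0, so that the arms overlapped on day -1 alone. Scaling by total counts also moved the median of all tested peaks to 0.44, 0.38 and 0.56 on the 3 days.

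Days were compared on the 13672 peaks matched between all 3 days by a reciprocal overlap of 50%, a comparison added after the data were seen. Matched members were 8 in 10a, 57 in 10b, 7 in 10c and 10 in 2a. Their counts were taken per 100 counts in matched nuclear peaks outside the windows. In 10b this level was 2.96 ± 0.16 (SD, n = 4) on day -2, 3.46 ± 0.22 (n = 4) on day -1 and 3.62 ± 0.17 (n = 4) on day 0 with scramble. With Kdm5c siRNA it was 3.18 ± 0.22 (n = 4), 3.39 ± 0.20 (n = 4) and 3.56 ± 0.28 (n = 3).

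Averaged over both arms, 10b rose by 0.16 on the log2 scale from day -2 to day -1 and by 0.23 from day -2 to day 0 (exact permutation of days within arms, adjusted p = 0.0157 and 0.00367 over 12 tests). Window 10c rose by 0.25 and 0.44 over the same steps (exact permutation, adjusted p = 0.0335 and 0.00327), and by 0.19 from day -1 to day 0 (adjusted p = 0.0476). The Cwc22 window took another course, as it fell by 0.23 from day -2 to day -1 and rose by 0.36 from day -1 to day 0 (exact permutation, adjusted p = 0.00327 for both). Window 10a had differences of -0.01, -0.01 and -0.00, and none passed (adjusted p = 0.911 to 0.971). Day goes with the mitochondrial share and with nuclear depth, and their part in these differences was not tested.

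**Figure D4:**
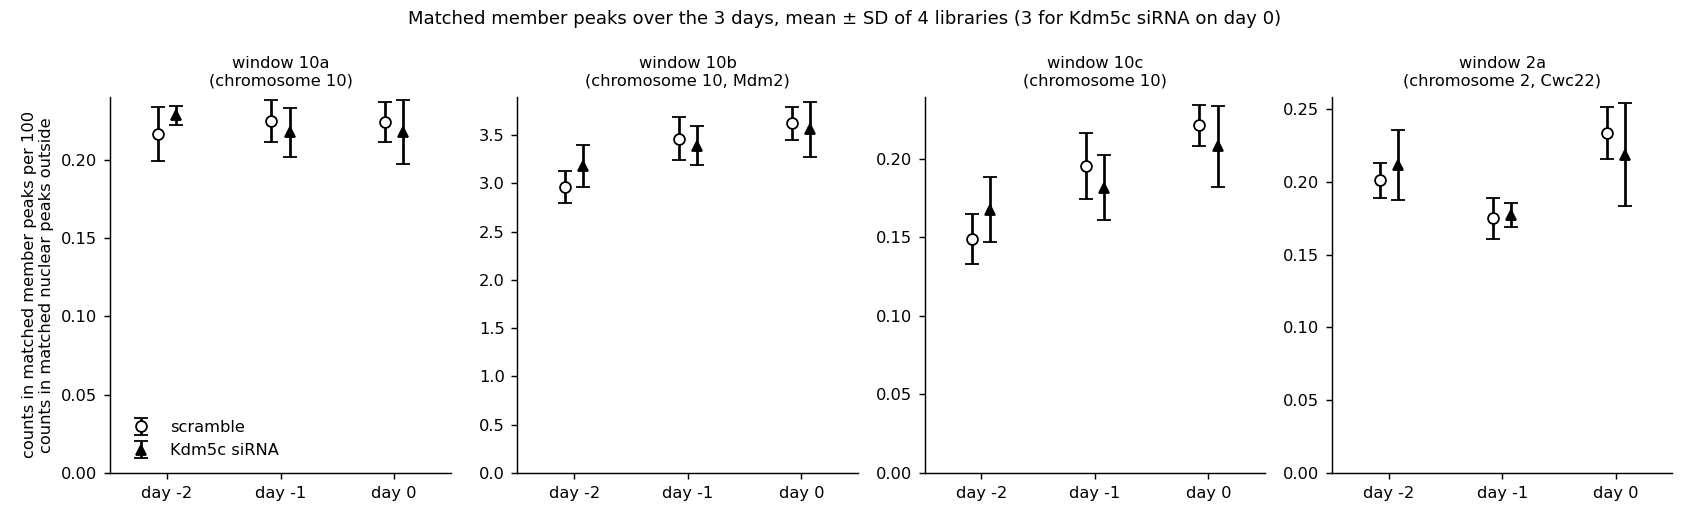
Counts in matched member peaks per 100 counts in matched nuclear peaks outside the windows, by day; circles are scramble and triangles Kdm5c siRNA, with bars for SD over 4 libraries (3 for Kdm5c siRNA on day 0). Window 10b rises from 2.96 to 3.62 with scramble, 10c rises, 2a dips on day -1 and 10a stays near 0.22.

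Whether the stretches vary together was asked of the 23 libraries after the mean of each day and arm had been removed. They did. Pearson's r was 0.98 between 10b and 10c (Spearman's rho 0.98), 0.80 between 10a and 10b (rho 0.75), and 0.81 between 10a and 10c (rho 0.79). Across chromosomes, window 2a gave r of 0.77 with 10a (rho 0.79), 0.80 with 10b (rho 0.77) and 0.80 with 10c (rho 0.77). All 6 passed a two-sided permutation test within day and arm, with an adjusted p of 6.0e-05 to 0.00052 for r and 6.0e-05 to 0.00099 for rho. The 4 levels share 1 denominator, the nuclear counts outside the windows.

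Without the 2 libraries farthest from the median of the first window, r was 0.73 to 0.78 for the 5 weaker pairs and 0.98 for 10b with 10c. Within day -1 alone r was 0.84 to 0.99, and within day 0 it was 0.77 to 0.97. Within day -2 it was 0.51 for 10a with 10b, 0.57 for 10a with 10c, 0.59 for 10a with 2a, 0.81 for 10b or 10c with 2a and 0.98 for 10b with 10c. The 10a window of siRNA replicate 2 on day -2 was 0.09 below its group mean on the log2 scale, while its 10b window was 0.10 above. As a description, pairs among 2125 other windows of 500 kb had a median r of 0.02, with 5 to 95% of pairs between -0.48 and 0.51. Window 10b against those windows had a median r of -0.16, with 5 to 95% between -0.65 and 0.54. Those windows hold fewer counts each. Counting alone would give them a median spread of 0.07 on the log2 scale, against 0.006 (10b) to 0.026 (10c) in the 4 windows. Such spread pulls r toward 0, so their r is not a like comparison.

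**Figure D5:**
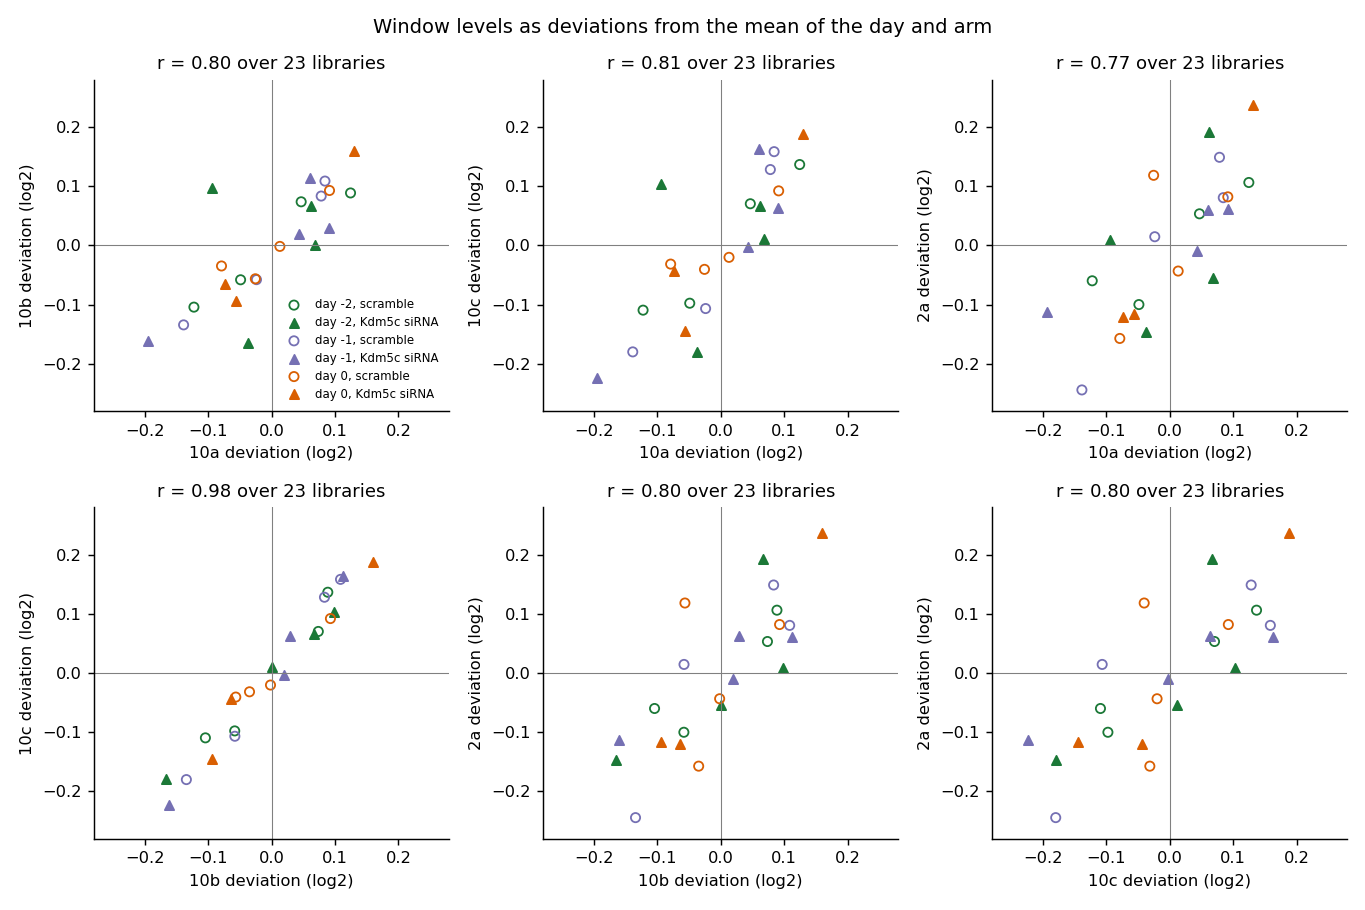
Each point is a library; both axes give the log2 deviation of a window's level from the mean of its day and arm, and the 6 panels are the 6 pairs of windows. Colours give the day, open circles scramble and filled triangles Kdm5c siRNA. Points follow the diagonal in each panel, most tightly for 10b with 10c (r = 0.98).

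The library that was highest in all 4 windows was Kdm5c siRNA replicate 1 of day 0, at 0.13, 0.16, 0.19 and 0.24 above its group mean in 10a, 10b, 10c and 2a. Kdm5c siRNA replicate 4 of day -1 was lowest in 10a and 10c, at -0.19 and -0.22, and scramble replicate 4 of day -1 was lowest in 2a, at -0.24. The SD within groups was 0.10 (10a), 0.11 (10b), 0.14 (10c) and 0.14 (2a) on the log2 scale. Counting alone would give 0.021, 0.006, 0.026 and 0.018, since a library had 2896 to 9923 member counts in 10a, 32705 to 140749 in 10b, 2001 to 6113 in 10c and 3396 to 19854 in 2a. The SD was thus 4.94, 17.5, 5.26 and 7.84 times the counting error, against a median of 1.68 times over the 2125 other windows, which hold fewer counts each. In SD itself the stretches were not apart from those windows, whose median was 0.12, with 5 to 95% between 0.07 and 0.18.

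The peaks within a stretch varied together too. Odd and even peaks of 1 window, numbered along the chromosome, gave r of 0.76 in 10a, 0.92 in 10b, 0.72 in 10c and 0.95 in 2a (permutation test, adjusted p = 2.0e-05 to 0.00015, rho 0.78 to 0.95).

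Levels of the windows also moved with 1 property of the library. They fell as the share of nuclear counts in promoter-class peaks outside the windows rose, with r of -0.49 in 10a, -0.74 in 10b, -0.71 in 10c and -0.79 in 2a (rho -0.53, -0.71, -0.70 and -0.81). The permutation test, adjusted over 12 relations, gave a p of 0.0898 for 10a and 0.00192 for the others. Without the 2 farthest libraries r was -0.42, -0.72, -0.72 and -0.74, and within days it ran from -0.30 to -0.95. With that share removed by regression, a comparison added after the data were seen, r was 0.75, 0.76 and 0.71 for 10a with 10b, 10c and 2a and 0.96 for 10b with 10c. It dropped from 0.80 to 0.53 for 10b with 2a and from 0.80 to 0.55 for 10c with 2a. All 6 passed (permutation test, adjusted p at most 0.0223). Neither the ratio of mitochondrial to nuclear counts (r = -0.16 to 0.17) nor nuclear depth (r = -0.41 to -0.31) passed the permutation test over all days in any window (adjusted p = 0.265 to 0.765). Within days, however, r with nuclear depth was 0.13, -0.67 and -0.75 for 10b and 0.17, -0.67 and -0.85 for 10c on days -2, -1 and 0. It was -0.09, -0.59 and -0.54 for 10a and -0.14, -0.23 and -0.52 for 2a. With the mitochondrial ratio, r within days ran from -0.62 to 0.49. The part of depth in the covariation was not tested.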

How the data were processed

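For the ATAC-seq libraries, cutadapt 2.3, Bowtie2 2.2.9, MACS2 2.1.1, HTSeq 0.9.1, DESeq2 1.24.0 and the build GRCm38 are named, per the submitters' processing notes, without order or settings. The authors deposited, for each day, 1 set of peaks with raw read counts per library. A second deposited table holds normalised signal, which equals the raw counts divided by 1 constant per library, and only its gene names were used. No source used here says if deposited starts are 0-based or 1-based. Members and lists were chosen with earlier results of these data known.

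Raw counts of each day were tested over all peaks with edgeR 4.0.16 (R 4.3.3; TMM, filterByExpr, quasi-likelihood F test, Benjamini-Hochberg adjustment), with DESeq2 1.42.0 as an alternative. The test was checked on simulated data. A window's level is the log2 of its member counts over nuclear counts outside the windows. Levels were compared by two-sided exact permutation of arms within a day, and deviations from day and arm means were correlated with 100000 permutations within those groups (Python 3.11.15, numpy 2.4.6, scipy 1.17.1; bedtools 2.31.1 for overlaps). Counting errors cover counting alone, since reads are not independent molecules.

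Named were all members with an authors' gene name, genes of a window with a peak, the 3 highest peaks of each window on day 0, peaks at the stretch ends, members called by edgeR and the 5 smallest p of each day. The low peaks inside the Mdm2 stretch, the peak upstream of Mdm2 and the lone peaks outside stretches were named after their values were seen. Alternatives changed the normalisation, filter, tool, denominator, bins and peaks used, and left out each library. Nothing in the labels says that a replicate number marks a shared culture, so the numbers were not used as pairs. Same-numbered libraries of the 2 arms correlated at -0.04 to 0.15 over peaks. This does not decide the question, since counting noise in single peaks lowers such correlations.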

Additional observations from a re-analysis of the deposited data

Results flagged for a closer look

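Counted once per window, 20 groups of 4 libraries were tested for a library far from the rest. Of these, 2 had one, and chance alone gives about 1 in 20 if groups are independent. They are not, since the same libraries recur in each window and the windows vary together. Window 10a had 0.3092 member counts per 100 nuclear counts outside the windows in Kdm5c siRNA replicate 4 of day -1, below 0.364, 0.369 and 0.377 in the other libraries of its group. Window 10c had 0.2883 in scramble replicate 3 of day 0, above 0.263, 0.265 and 0.267 in the others.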

How the results depend on the processing

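With all counts, mitochondrial ones included, as denominator, the siRNA difference over 3 days changed sign to 0.402 (10a), 0.425 (10b), 0.403 (10c) and 0.397 (2a). By day it became 0.296, 0.299, 0.222 and 0.344 on day -1 and 0.411, 0.425, 0.411 and 0.375 on day 0. The difference of 10b over 3 days, near 0, became 0.00088 with non-promoter peaks as denominator and 0.0152 on matched peaks, and matched peaks gave 0.0228 for 2a on day -1. Leaving out 1 library at a time moved the 10b difference over 3 days from -0.032 to 0.013, that of 10a on day -1 from -0.107 to 0.0042, that of 2a on day -2 from -0.031 to 0.082 and on day -1 from -0.093 to 0.038. The same step moved the promoter ratio from -0.0080 to 0.068 for Slc35e3 and from -0.028 to 0.030 for Cpm.

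With the replicate number as a block, the difference of 10b was 0.0046 (adjusted p = 0.908), the other windows kept their sign, and 0 members were called on each day. Members at an unadjusted p under 0.05 on day 0 went from 64 to 30. Whether the numbers pair the libraries is not known.

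Scaling by total counts called 144 of 418 members on day -2, and 1224 of all 49455 tested peaks, every one of them higher. The median of all tested peaks rose to 0.44 on that day. The same scaling turned the member medians to 0.28 on day -1 and 0.38 on day 0, and the medians of all peaks rose as well, as given above. On day 0, 1 member was called with RLE factors, 1 without the filter and 1 with mitochondrial peaks left out and members outside the normalisation, and 0 to 2 without 1 library.

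Covariation kept its sign within days but lost the threshold, with fewer libraries, on day -2 (0.514, 0.572 and 0.590 for 10a with 10b, 10c and 2a, 0.808 and 0.814 for 10b and 10c with 2a) and on day 0 (0.947, 0.889, 0.853, 0.765 and 0.786 in that order).

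Stretch lengths followed the rule used. Bins of 50 kb gave 49.0 kb (10a) and 179.9 kb (2a), bins of 200 kb gave 178.0 (10a), 126.8 (10c) and 273.1 (2a), no joining gave 49.0 (10a), and bins at 2 times gave 259.0 (10c). Peak runs at 2 times gave 43.8 (10a), 425.4 (10b) and 157.5 (2a), and at 3 times 43.8, 424.5 and 145.2. Density ratios per kb of peak were 7.37, 11.04, 4.79 and 4.57 for 10a, 10b, 10c and 2a. They were 70.4, 326.3, 42.1 and 12.3 with non-promoter peaks only, 17.7, 103.9, 10.9 and 13.9 against the other autosomes, and 58.9 (10b), 0.908 (10c) and 1.80 (2a) with promoter-class peaks only.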
